A study of Homo sapiens with 6 samples.

Results

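The 10 genes examined are those most used to follow the epithelial-mesenchymal transition (EMT) in carcinoma cells: the transcription factors SNAI1, SNAI2, ZEB1, ZEB2, TWIST1 and TWIST2, the cadherins CDH1 and CDH2, and the mesenchymal markers VIM and FN1. They were picked by symbol from the 58884 genes of the deposited table, and all 10 were found once. RNA was sequenced from KYSE70, an established line of human esophageal squamous cell carcinoma (ESCC) that carries a mutant NFE2L2 gene, the gene of the transcription factor NRF2. It was compared with NRF2null-KYSE70, which the study derived from KYSE70 with CRISPR-Cas9 as 1 monoclonal line with a frameshift in NFE2L2. The clone kept shorter NRF2 transcripts and a faint smaller NRF2 protein by the study's own account. Both lines were untreated, and each had 3 libraries. Nothing states that libraries came from separate cultures, so p-values measure the spread between libraries, which may be technical. Loss of NRF2 and other differences between this 1 clone and its parental line cannot be told apart.

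In EMT, epithelial cells give up adherens junctions and apical-basal polarity and take up a migratory, mesenchymal form. Proteins of the SNAIL, ZEB and TWIST families are the core factors: they bind E-box DNA elements, repress the E-cadherin gene CDH1 and raise mesenchymal genes such as CDH2, which encodes N-cadherin, VIM, which encodes the intermediate filament protein vimentin, and FN1, which encodes the matrix protein fibronectin. Carcinoma cells often hold epithelial and mesenchymal genes active together, a condition called partial or hybrid EMT.

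The members split by direction in NRF2null-KYSE70. TWIST1, CDH2, VIM and CDH1 rose, ZEB1 and ZEB2 fell, and SNAI1, SNAI2 and FN1 did not pass the test. Levels are given as normalized counts, that is, reads per gene divided by the library's size factor, and a log2 fold change is the difference of NRF2null-KYSE70 minus KYSE70 in log2(normalized count + 1). The added 1 shrinks the change of weakly detected genes. A gene is written as risen or fallen where its adjusted p was under 0.05 (limma, Benjamini-Hochberg over the 15994 genes that averaged 10 or more normalized counts), and as called where its absolute log2 fold change also reached 1, the cut-offs the study used. Of the 10 members, 9 were abundant enough to be tested. TWIST2 was not, with 1 read in all 6 libraries together. Among the 9, 6 passed on adjusted p alone, a criterion that 57.6% of all tested genes met. With the fold criterion 4 were called, against 14.7% of all tested genes. These were 3 that rose, where the rate over all genes was 7.23%, and 1 that fell, where it was 7.43%. The lines did not overlap in 7 of the 9, as in 63.4% of all tested genes, so separation of the lines by itself was common. The median log2 fold change of the 9 was 0.53, and that of all tested genes was -0.0070.

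**Figure D1:**
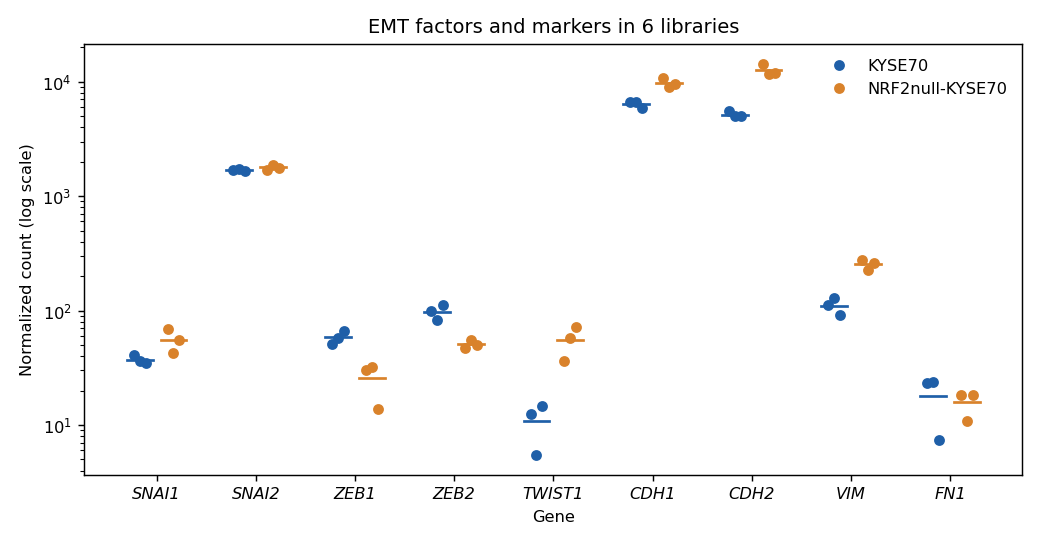
Normalized counts (log scale) of the 9 tested EMT genes. Each point is 1 library, blue for KYSE70 and orange for NRF2null-KYSE70, and each bar is the mean of 3 libraries. SNAI2, CDH1 and CDH2 lie above 1000 in every library, and the other genes lie below 300. TWIST2, with 1 read in all, is not drawn.

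Recovered totals ran from 52072801 to 63975313 reads per library. NFE2L2 itself measured 9839, 9906 and 10040 normalized counts in the parental libraries and 5803, 6041 and 6434 in those of the clone (log2 fold change -0.71, SE 0.049, adjusted p = 9.37e-08, limma). The RNA of a frameshifted gene can remain, so this level does not measure the loss of the protein. All 11 squamous epithelial markers listed were tested, and KRT5, SOX2, TP63 and EPCAM were abundant in both lines, while KRT14, another basal keratin, averaged only 46.4 in KYSE70 and 156 in NRF2null-KYSE70. Of these 11, 6 rose and 5 fell, and their summed level was lower in NRF2null-KYSE70, at 292462 to 311150 against 373549 to 386202 in KYSE70. Of 10 fibroblast markers, COL1A2, DCN and FAP had no read in any library, and POSTN and THY1 were abundant in both lines. The summed level of that list ran from 25193 to 26276 in KYSE70 and from 28554 to 31497 in NRF2null-KYSE70. Of 6 endothelial markers, PECAM1, CDH5 and CLDN5 had at most 1 read in any library, and the summed level, carried by VWF, ran from 138 to 162 against 293 to 499. Among the immune markers, CD3E had 1 read in all, while PTPRC, the leukocyte gene of CD45, went from 1 read over the 3 KYSE70 libraries to 125 reads over those of NRF2null-KYSE70. The summed immune list ran from 0 to 15.8 against 42.2 to 58.2. The fibroblast, endothelial and immune sums were thus higher in NRF2null-KYSE70, as VIM, CDH2 and TWIST1 were. The squamous sum was lower, as ZEB1 and ZEB2 were. A sum follows its most abundant genes and need not match the rest of its list. Of the 4 fibroblast markers tested, 2 rose and 2 fell. Among them 0 were called higher and 2 lower, with a median log2 fold change of -0.50. The squamous list had a median of 0.15, with 1 called higher and 0 called lower. The part of these lists in the results on the members was not tested. In bulk RNA, a change in the share of cells that express a gene and a change in RNA per cell cannot be told apart, and this holds for every result here.

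To compare genes with each other, counts were divided by the exon length of the canonical transcript. The cadherins were the most abundant members on this per-kilobase scale. In KYSE70, CDH1 measured 1335 ± 87.6 normalized counts per kb and CDH2 1283 ± 76.1 (SD, n = 3 libraries), and the ranges of these 2 genes overlapped. SNAI2 followed at 779 ± 16.8 per kb and VIM at 51.3 ± 8.61. SNAI1 came next at 21.9 ± 1.87 per kb. ZEB2 at 10.5 ± 1.48, ZEB1 at 9.84 ± 1.33 and TWIST1 at 6.68 ± 2.98 per kb formed a group in which neighbours overlapped, and FN1 was lowest of the tested members at 2.15 ± 1.1. In NRF2null-KYSE70, CDH2 stood first at 3159 ± 369 per kb, above every library of CDH1 at 2034 ± 199. SNAI2 at 816 ± 41.3 and VIM at 118 ± 12.5 kept their places in the order. TWIST1 at 34.0 ± 10.9 and SNAI1 at 32.4 ± 7.87 per kb overlapped. ZEB2 at 5.46 ± 0.447 and ZEB1 at 4.29 ± 1.73 per kb overlapped as well, and FN1 again came last at 1.88 ± 0.514. Averaged over both lines, CDH2 lay at the 86.9th percentile of all tested genes on this scale and CDH1 at the 83.0th, whereas ZEB1 lay at the 4.90th and FN1 at the 0.438th. The classical EMT factors other than SNAI2, and fibronectin, were therefore among the weakly detected genes of these cells. The order of members close in level depended on the length used. Per kilobase of all annotated exons, KYSE70 had VIM at 21.4 beside SNAI1 at 21.9, and ZEB2 at 3.73 below ZEB1 at 6.75. In NRF2null-KYSE70, CDH1 at 1611 then lay above CDH2 at 1478.

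SNAI2 encodes SLUG, the SNAIL-family repressor that is also active in basal cells of stratified epithelia (chr8:48917598-48921740, minus strand, hg38). Its normalized counts were 1683, 1739 and 1670 in KYSE70 and 1705, 1880 and 1755 in NRF2null-KYSE70. The ranges overlapped. The log2 fold change was 0.07 (SE 0.063, 95% interval -0.07 to 0.20, adjusted p = 0.381, limma), so a change larger than about 1.15-fold upward was outside the interval. SNAI2 made up 94.1% ± 0.670 of the summed per-kilobase level of the 6 factors in KYSE70 and 91.4% ± 0.856 in the clone (SD, n = 3), so by RNA it was the most abundant of the 6 in both lines.

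SNAI1 encodes SNAIL, the first factor shown to repress E-cadherin and a protein that is destroyed quickly after phosphorylation (chr20:49982980-49988886, plus strand). It measured 40.9, 36.3 and 34.8 normalized counts in KYSE70 and 69.0, 42.2 and 54.8 in NRF2null-KYSE70. Every NRF2null-KYSE70 library was above every KYSE70 library, by a narrow margin. The difference did not pass the test (log2 fold change 0.53, SE 0.288, 95% interval -0.10 to 1.16, adjusted p = 0.135, limma). With the median change of 40 neighbouring genes subtracted, it was 0.74 with adjusted p = 0.0414, the lowest value over the alternatives, which ran to 0.406.

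TWIST1 encodes a basic helix-loop-helix factor of mesoderm that binds E-boxes together with E-proteins (chr7:19020991-19117636, minus strand). KYSE70 had 12.5, 5.44 and 14.8 normalized counts, which were 14, 6 and 14 reads. NRF2null-KYSE70 had 36.5, 57.9 and 71.9, which were 36, 59 and 63 reads. The lowest NRF2null-KYSE70 library was above the highest of KYSE70. TWIST1 rose with a log2 fold change of 2.29 (SE 0.446, 95% interval 1.32 to 3.26, adjusted p = 7.06e-04, limma), the largest difference among the 9 tested members, and it was called in all 17 alternative fits under these criteria that kept it. It did not pass a limma treat test against the fold criterion itself (adjusted p = 0.0965). Its share of the 6 factors per kilobase went from 0.811% ± 0.369 to 3.79% ± 1.17 (SD, n = 3). Even so, TWIST1 stayed far below SNAI2 in level. Its close relative TWIST2 (chr2:238848032-238910534, plus strand) had 0 reads in 5 libraries and 1 read in the second NRF2null-KYSE70 library, so no fold is given. A count of 0 in a library allows up to 3 reads.

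ZEB1 and ZEB2 encode zinc-finger homeobox repressors of CDH1 and of other epithelial genes. ZEB1 (chr10:31318495-31529814, plus strand) measured 50.7, 58.1 and 66.4 normalized counts in KYSE70 and 30.4, 32.4 and 13.7 in NRF2null-KYSE70, the last from 12 reads. All NRF2null-KYSE70 libraries lay below all KYSE70 libraries, with the third one lowest. ZEB1 fell by 1.25 on the log2 scale (SE 0.363, 95% interval -2.04 to -0.46, adjusted p = 0.0104, limma) and was called. Without the third NRF2null-KYSE70 library it fell by 0.87, which no longer reached the fold criterion, and it was called in the other 16 of 17 alternative fits that kept it. It did not pass limma treat. ZEB2 (chr2:144364364-144521057, minus strand) measured 98.7, 83.5 and 110.7 in KYSE70 and 46.7, 54.9 and 50.2 in NRF2null-KYSE70. These groups were well apart. ZEB2 fell by 0.93 on the log2 scale (SE 0.228, 95% interval -1.42 to -0.43, adjusted p = 0.00369, limma), just short of the fold criterion, and was called in 3 of 18 alternative fits under these criteria. ZEB2 accounted for 1.28% ± 0.195 of the summed factor level per kilobase in KYSE70 and 0.611% ± 0.0226 in the clone (SD, n = 3).

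ZEB1 shares its 5′ end with ZEB1-AS1, a long noncoding RNA transcribed the other way (chr10:31206278-31320447, minus strand). Their exons share 396 bases, and whether counting used strand was not stated, so reads there cannot be assigned to one or the other. ZEB1-AS1 had more reads than ZEB1 in every library, with 518, 444 and 498 in KYSE70 and 190, 187 and 194 in NRF2null-KYSE70. It fell as ZEB1 did, by 1.21 on the log2 scale (SE 0.137, adjusted p = 7.77e-06, limma). The part of the shared exon in the ZEB1 result was not tested. ZEB2-AS1, which shares 1299 exon bases with ZEB2, had no read in any library.

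A ZEB1 promoter window is shown because ZEB and SNAIL proteins bind the E-box CACCTG, and this window holds several copies. It runs over chr10:31318966-31319265, plus strand (RefSeq, GRCh38.p14), from 250 bases before to 50 bases after a ZEB1 start site at position 31319216. Capitals mark CACCTG on either strand.
ZEB1 promoter window: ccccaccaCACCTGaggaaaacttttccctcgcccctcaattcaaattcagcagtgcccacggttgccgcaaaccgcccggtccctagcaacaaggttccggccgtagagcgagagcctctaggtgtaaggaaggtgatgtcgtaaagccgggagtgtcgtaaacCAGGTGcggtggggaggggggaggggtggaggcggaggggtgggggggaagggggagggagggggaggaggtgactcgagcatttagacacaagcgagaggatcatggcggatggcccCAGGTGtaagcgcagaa

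The 3 matches begin 242 and 85 bases before the start site and 33 bases after it. A start site of ZEB1-AS1 lies 121 bases before that of ZEB1, within the same window. The ZEB1-AS1 window around it overlaps the ZEB1 window by 220 bases. Its 2 matches are 2 of the 3 ZEB1 matches read on the other strand. CACCTG on either strand occurred in 20.6% of 35116 promoter windows of this length, and 3 or more copies occurred in 0.635%. The window shown was picked as the ZEB1 window with the most copies. These rates are for windows not picked in that way, so they cannot show that it is unusual. Of the 7 ZEB1 windows, 2 held a match. Windows of ZEB2, TWIST2, CDH2, VIM and FN1 held none, and 6 of the 10 members had a window in the table. CDH1, SNAI1, SNAI2 and TWIST1 had no entry. These matches are letters in a window and were not measured as binding.

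ZEB1 and ZEB2 are also textbook targets of the miR-200 family and miR-205, small RNAs that hold cells in the epithelial state. Their mature sequences (RefSeq) are shown because their seeds, bases 2 to 8, set the sites they can pair with. Capitals mark the seed.
hsa-miR-200b-3p: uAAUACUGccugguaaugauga
hsa-miR-200c-3p: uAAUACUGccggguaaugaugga
hsa-miR-429: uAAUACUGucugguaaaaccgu
hsa-miR-200a-3p: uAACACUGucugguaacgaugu
hsa-miR-141-3p: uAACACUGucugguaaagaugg
hsa-miR-205-5p: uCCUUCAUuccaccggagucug

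The first 3 share the seed AAUACUG, which pairs with CAGTATT in a target, and the next 2 share AACACUG, which pairs with CAGTGTT. The seed of miR-205, CCUUCAU, pairs with ATGAAGG. On GRCh38.p14, miR-200b-3p lies at chr1:1167160-1167181 and miR-200c-3p at chr12:6963742-6963764, each in 1 of the 2 clusters of the family, and miR-205-5p lies at chr1:209432166-209432187, all on the plus strand. The 3′ UTR of the canonical ZEB1 transcript, 2540 bases long, held 6 matches to CAGTATT, 3 to CAGTGTT and 1 to ATGAAGG. That of ZEB2, 5370 bases long, held 5, 4 and 0. Among 19432 canonical 3′ UTRs, 0.0412% had at least 5 matches to CAGTATT and 1.01% had at least 3 to CAGTGTT. These cut-offs were the lower of the ZEB1 and ZEB2 counts, and both genes were picked as known targets. The rates therefore cannot show that ZEB1 and ZEB2 are unusual. Longer 3′ UTRs have more room for a match. SNAI2 had 1 match to CAGTATT and FN1 had 2, and the 3′ UTRs of SNAI1, TWIST1, TWIST2, CDH1, CDH2 and VIM held no match to any of the 3 seeds. Of the 19432 3′ UTRs, 16.1% held a match to CAGTATT, 18.2% to CAGTGTT and 11.6% to ATGAAGG. Single matches and their absence were thus common. The mature miRNAs were not measured in these libraries. Of the host transcripts, MIR200CHG averaged 29.8 normalized counts in the parental line and 17.5 in the clone (log2 fold change -0.71, SE 0.384, adjusted p = 0.133, limma), a difference that did not pass. MIR205HG averaged 2848 and 3495 and rose by 0.30 on the log2 scale (SE 0.064, adjusted p = 0.0016, limma).

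**Figure D2:**
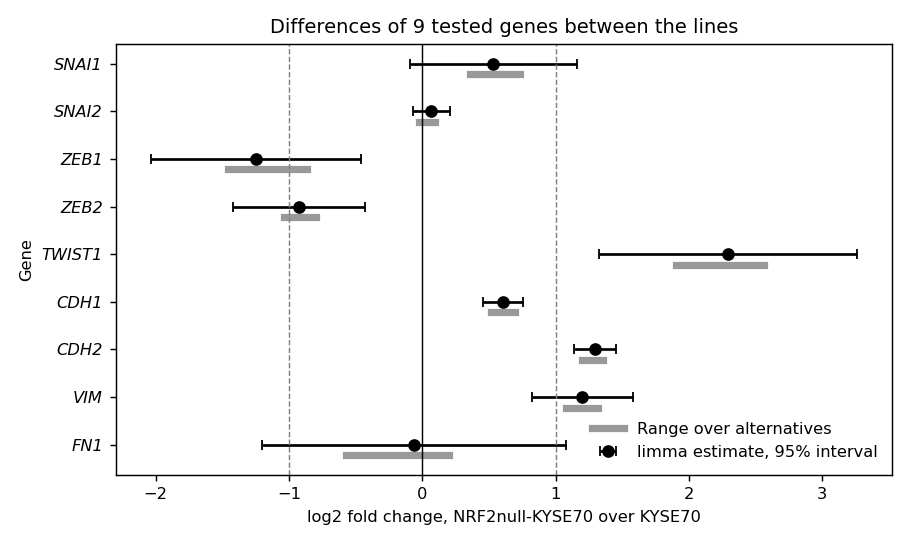
Log2 fold change of the 9 tested members, NRF2null-KYSE70 over KYSE70. Black points are limma estimates with 95% intervals, grey bars span the estimates over the alternative settings, and dashed lines mark the fold criterion at -1 and 1. TWIST1 (2.29), CDH2 (1.30) and VIM (1.20) lie above 1, ZEB1 (-1.25) lies below -1, and the intervals of SNAI1, SNAI2 and FN1 include 0.

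CDH1 encodes E-cadherin, the adhesion molecule of epithelial adherens junctions whose loss is the usual hallmark of EMT (chr16:68737292-68835537, plus strand). It measured 6690, 6644 and 5939 normalized counts in KYSE70 and 10849, 8995 and 9519 in NRF2null-KYSE70. The groups were clearly apart, and each NRF2null-KYSE70 library was higher. CDH1 rose by 0.60 on the log2 scale, 1.52-fold (SE 0.070, 95% interval 0.45 to 0.76, adjusted p = 9.45e-06, limma), and reached the fold criterion neither here nor in any of 18 alternative fits.

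CDH2 encodes N-cadherin, which replaces E-cadherin in the classical cadherin switch (chr18:27932879-28177946, minus strand). KYSE70 libraries measured 5505, 4976 and 4975 normalized counts, and those of NRF2null-KYSE70 measured 14397, 11781 and 11886. Every NRF2null-KYSE70 library held more than 2 times the highest KYSE70 value. CDH2 rose by 1.30 on the log2 scale, 2.45-fold (SE 0.074, 95% interval 1.13 to 1.46, adjusted p = 1.45e-08, limma). It was the only member that also passed a test against the fold criterion itself (limma treat, adjusted p = 0.0163). A noncoding gene on the other strand, ENSG00000227279, shares 307 exon bases with CDH2 and had 2, 4 and 9 reads against 26, 29 and 13, whereas CDH2 had 16394 reads over the KYSE70 libraries and 36620 over those of NRF2null-KYSE70.

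Both cadherins therefore rose, CDH2 by more. Within each library the ratio of CDH2 to CDH1 normalized counts averaged 0.803 ± 0.0475 in KYSE70 and 1.30 ± 0.0411 in the clone (SD, n = 3), a 1.61-fold higher ratio with no overlap between the lines. Per kilobase of the canonical transcripts the ratio went from 0.962 ± 0.0569 to 1.55 ± 0.0493. Divided by the length of all annotated exons instead, it went from 0.569 to 0.917, so which cadherin was the more abundant depended on the length used, whereas the change between the lines did not.

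**Figure D3:**
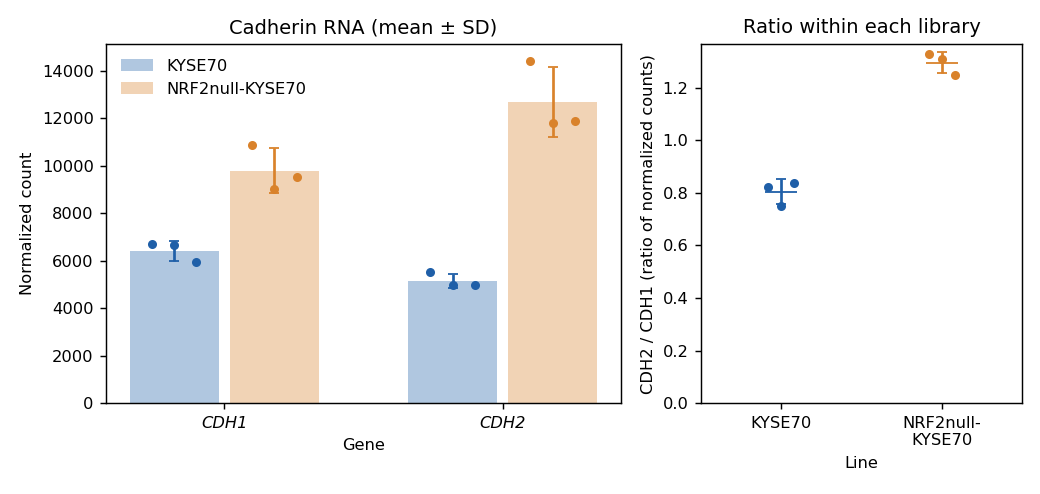
Left, normalized counts of CDH1 and CDH2, with bars for the mean of 3 libraries, error bars for the SD and 1 point per library. Right, the ratio of CDH2 to CDH1 within each library, with the mean and SD. Both genes are higher in NRF2null-KYSE70 (orange) than in KYSE70 (blue), and the ratio averages 0.803 in KYSE70 and 1.30 in NRF2null-KYSE70.

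VIM, the vimentin gene, is the filament marker of mesenchymal cells (chr10:17228241-17237593, plus strand). It measured 111, 129 and 91.7 normalized counts in KYSE70 and 279, 226 and 258 in NRF2null-KYSE70. The lowest NRF2null-KYSE70 library stood well above the highest of KYSE70. VIM rose by 1.20 on the log2 scale, 2.30-fold (SE 0.174, 95% interval 0.82 to 1.58, adjusted p = 6.62e-05, limma), and was called in all 18 alternative fits under these criteria, but did not pass limma treat. At the 30.3rd percentile per kilobase it was still a modestly expressed gene. VIM-AS1, on the other strand, shares 656 exon bases with VIM. It had 4, 1 and 12 reads against 17, 13 and 22, whereas VIM had 354 reads over the KYSE70 libraries and 731 over those of NRF2null-KYSE70. VIM-AS1 rose too, by 1.93 on the log2 scale (SE 0.729, adjusted p = 0.0378, limma).

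FN1, the fibronectin gene, is both a matrix protein and a standard mesenchymal marker (chr2:215360440-215436073, minus strand). It measured 23.1, 23.6 and 7.38 normalized counts in KYSE70 and 18.3, 10.8 and 18.3 in NRF2null-KYSE70. The ranges overlapped fully, and the KYSE70 libraries differed more among themselves than the lines did. The log2 fold change was -0.06 (SE 0.526, 95% interval -1.20 to 1.08, adjusted p = 0.930, limma). With 59 reads in the KYSE70 libraries together and 45 in those of NRF2null-KYSE70, changes within that wide interval were not detectable at this depth.

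Other genes of the pathway were described through lists that general knowledge ties to EMT, with the median of all tested genes at -0.0070 and their shares passing on adjusted p (57.6%), called higher (7.23%) and called lower (7.43%) for comparison. Of 30 mesenchymal effector genes, 20 were tested, 13 rose, 6 fell and 1 did not pass, with 7 called higher, 3 called lower and a median log2 fold change of 0.81. The share that passed was 95%, and the shares called higher and lower were 35% and 15%. The gelatinase gene MMP2 went from 1324 ± 99.7 to 10848 ± 691 normalized counts (SD, n = 3), 3.03 on the log2 scale. AXL, a receptor tyrosine kinase linked to the mesenchymal state, went from 221 ± 23.4 to 1223 ± 43.2. FSTL1, a secreted glycoprotein, went from 42.6 ± 10.8 to 270 ± 31.9. NT5E, the gene of the surface enzyme CD73, was noted after its values were seen: it had 1 read over the KYSE70 libraries and 93 over those of NRF2null-KYSE70 (102-fold, interval 17.9 to 4090, counting error only), and the list's median stayed at 0.81 with NT5E at the lower limit. The 3 genes called lower all encode fibrillar collagen chains. COL3A1 went from 257 ± 38.7 to 8.46 ± 2.56 normalized counts, COL5A2 from 8669 ± 796 to 2875 ± 319, and COL1A1 from 1232 ± 88.4 to 554 ± 78.9. COL5A1, another such chain on the list, fell by 0.78 on the log2 scale without being called. COL1A2, FAP, DCN and BGN, also on this list, had no read in either line, whereas the fibroblast markers POSTN and THY1 on it were abundant in both.

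**Figure D4:**
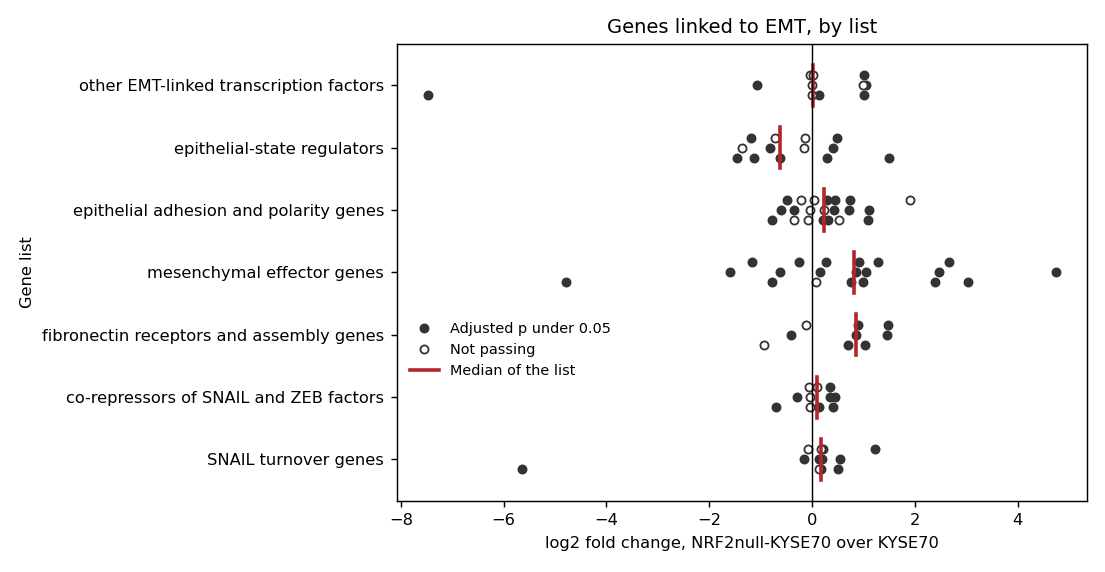
Log2 fold change, NRF2null-KYSE70 over KYSE70, of the tested genes in 7 lists linked to EMT. Filled points passed at an adjusted p under 0.05, open points did not, and red lines are list medians. Medians are highest for fibronectin receptors and assembly genes (0.85) and mesenchymal effectors (0.81) and lowest for epithelial-state regulators (-0.61). Each list holds genes on both sides of 0.

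Several genes of the list for fibronectin receptors and matrix assembly rose, while FN1, with few reads, did not pass the test. Of 13 genes for fibronectin receptors and matrix assembly, 9 were tested, 6 rose and 1 fell, with 3 called higher and a median of 0.85. That is 77.8% passing and 33.3% called higher, among only 9 genes. ITGA5, the alpha chain of the classical fibronectin receptor, went from 708 ± 75.4 to 1932 ± 114 normalized counts (SD, n = 3). ITGB5 went from 8597 ± 640 to 24049 ± 2031, and the syndecan SDC4 from 1544 ± 143 to 3169 ± 48.8. The 40 neighbouring genes of ITGB5 had a median log2 fold change of 0.45, whereas those of ITGA5 had -0.59 and those of SDC4 -0.19.

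Epithelial genes were mixed. Of 23 adhesion and polarity genes, 21 were tested, 9 rose, 4 fell and 8 did not pass, with 2 called higher, none called lower and a median of 0.24. The shares passing (61.9%) and called higher (9.52%) lay near those of all genes. The called genes were CD24, a surface glycoprotein, from 2383 ± 73.7 to 5138 ± 12.8, and SPINT1, a protease inhibitor of epithelia, from 5541 ± 183 to 11797 ± 959. SPINT1 had 40 neighbouring genes with a median log2 fold change of 0.36. EPCAM, named because it is the standard epithelial marker, rose by 0.30 on the log2 scale. CTNNB1, which encodes beta-catenin that links cadherins to actin and was chosen after its values were seen, fell by 0.78, and the median of its 40 neighbouring genes was also low at -0.49. Of 15 regulators of the epithelial state, 13 were tested, 4 rose, 5 fell and 4 did not pass, with a median of -0.61, so that 69.2% passed and 23.1% were called lower. The 3 called lower were GRHL3, from 565 ± 37.9 to 246 ± 8.77, EHF, from 4960 ± 181 to 2259 ± 160, and FOXA1, from 289 ± 37.0 to 107 ± 35.1, all transcription factors of differentiating epithelium. The 1 called higher (7.69%, near the share of all genes) was the epithelial splicing regulator ESRP1, at 18.2 against 52.0 and below the level set for named genes. GRHL2, which supports CDH1 transcription in many epithelia, was not tested. It had 2, 2 and 2 reads in the KYSE70 libraries and 0, 20 and 6 in those of NRF2null-KYSE70, so most came from 1 library.

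Among 15 other transcription factors linked to EMT, 11 were tested, 4 rose, 2 fell and 5 did not pass, with a median of 0.02. The share that passed was 54.5%, with 27.3% called higher and 18.2% called lower. SOX4 (2476 ± 139 to 5143 ± 312), FOXC1 (475 ± 50.9 to 962 ± 112) and FOXQ1 (181 ± 16.8 to 365 ± 14.3) were called higher, each close to the fold criterion, and with libraries scaled to equal totals none of the 3 was called. FOXC2 (287 ± 17.9 to 136 ± 16.97) was called lower. TCF4, an E-protein and a binding partner of TWIST proteins, went from 4457 ± 211 to 24.5 ± 5.59 normalized counts and fell by 7.47 on the log2 scale.

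Partners and regulators of the repressor proteins had medians near that of all genes. Of 11 co-repressor genes, all were tested, 5 rose, 2 fell and none was called, with a median of 0.09 and 63.6% passing. Of 12 genes that control the life of SNAIL protein, all were tested, 7 rose, 2 fell and 3 did not pass, with a median of 0.18 and 75% passing. The shares called higher and called lower were both 8.33%, near those of all genes (7.23% and 7.43%). LATS2, a Hippo kinase that stabilizes SNAIL, was called higher (943 ± 77.8 to 2210 ± 318). PRKD1, a kinase that phosphorylates SNAIL, was called lower, from 211 reads over the KYSE70 libraries to 1 read, a 191-fold difference per size factor with an exact Clopper-Pearson 95% counting interval of 34.0 to 7599. It was named after its values were seen, and the list's median stayed at 0.18 with PRKD1 set to the lower limit.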

How the data were processed

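RNA from 3 libraries of KYSE70 and 3 of NRF2null-KYSE70 was analysed. The authors aligned reads with STAR (2.6.90c) to hg38, counted them per gene with featureCounts (1.5.1) and normalized with DESeq2. FastQC (0.11.5) and cutadapt (1.12) stand in the submitters' processing notes, which also list the mouse build. What the authors deposited is a signal, normalized counts (reads divided by 1 size factor per library). The methods named RefSeq, whereas the table gave Ensembl identifiers. Strand setting and treatment of multi-mapping reads were not given in the sources used here. Every value was a whole multiple of 1 read within a tolerance of 0.1 reads (100% in each library), so whole reads were recovered, with totals between 52072801 and 63975313. Columns named the line but no replicate, so libraries are numbered by their order in the table.

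limma (3.58.1, R 4.3.3; lmFit and eBayes with a trend, two-sided) was fitted to log2(normalized count + 1) of the 15994 genes with a mean of at least 10, with the line as the only term and Benjamini-Hochberg adjustment over all of them. Calls needed both an adjusted p below 0.05 and a log2 fold change of 1 or more in size. The fit was also run on simulated counts with the same dispersion for every gene, as a check of the code. That setting is simpler than these data, so it does not bear on the member results. Alternatives changed the pseudocount, filter, scaling and limma options, left out each library, subtracted the median of 40 neighbouring genes, used a limma treat test, or ran edgeR (4.0.16) and DESeq2 (1.42.0) on the recovered reads. limma called 2344 genes, edgeR 2350 and DESeq2 2341. Positions, exon lengths and 3′ UTRs came from GENCODE release 44 (hg38). The 58472 identifiers found there include all members. Floors of 3 reads and 95% counting intervals cover counting error only.

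The members and lists were chosen with earlier results of these data known. All 10 members are named. From each list up to 3 genes per direction are named, those with the largest change among called genes that averaged 100 or more and did not overlap between the lines, together with antisense partners, NFE2L2, and genes on which a result turns. The value of 1 immune marker is not reported here.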

Additional observations from a re-analysis of the deposited data

How the results depend on the processing

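CDH2, VIM and TWIST1 were called in every alternative fit under the same criteria that kept them, and CDH1 rose in all 18 without being called. Against the fold criterion itself (limma treat), CDH2 passed and VIM and TWIST1 did not. The count of members called, 4, was 2 with a filter at a mean of 50, which removes TWIST1 and ZEB1 by construction, and 1 (CDH2) with limma treat, where the count called higher was also 1. The count called lower, 1, was 0 with the filter at 50 and with limma treat, and 2 with total scaling, with neighbour-centred values and on adjusted p alone, since ZEB2 lies close to the criterion. Leaving out 1 library gave between 0 (without NRF2null-KYSE70 library 3) and 2 (without KYSE70 library 2). SNAI2 changed sign at -0.0080 with total scaling, which shifts the median of all genes by -0.075, and at -0.022 when neighbour-centred. FN1 changed sign at 0.043 with quantile normalization, and ran from -0.57 to 0.20 when 1 library was left out (0.19 without KYSE70 library 1, 0.20 without KYSE70 library 2, 0.17 without NRF2null-KYSE70 library 2). Other EMT-linked factors called higher went from 3 to 0 with total scaling and those called lower from 2 to 1 with quantile normalization, which also took adhesion genes called higher from 2 to 1. The filter at 50 left 0 epithelial-state regulators called higher and 0 SNAIL turnover genes called lower. Where no reason is given, the cause was not tested. No paired analysis was possible because the columns carry no replicate numbers. Depth limits TWIST1, TWIST2, FN1, SNAI1 and ZEB1, which had under 100 reads in every library.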
